A study of Homo sapiens with 6 samples.

Results

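The genes described here were AXL, its relatives TYRO3 and MERTK, their shared ligand GAS6, and 6 other receptor tyrosine kinases, namely EGFR, ERBB2, ERBB3, MET, FGFR1 and IGF1R. These 10 genes were found by symbol in a table of 62443 genes, and all 10 were above 0 in at least 1 library. Total RNA was sequenced from HGC-27 cells, an established human gastric cancer cell line. Con was the group of 3 control libraries, which carry no treatment in the labels and received the storage buffer of the peptide according to the methods of the study, and GLUP was the group of 3 libraries from cells given the GLUP peptide. GLUP is a cyclic linker peptide built from the TEAD4-binding motif of VGLL4 and made to bring TEAD4 molecules together, TEAD4 being a DNA-binding transcription factor of the Hippo pathway. The length of the treatment differs between 2 passages of the study and is not given here. The methods of the study speak of biological replicates, but neither they nor the labels say which libraries came from separate cultures, so p-values measure only the spread between these libraries, which may be technical. The comparison of GLUP with Con was read here for one question, which is whether AXL was lower in GLUP by itself or together with the other receptors.

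Receptor tyrosine kinases span the cell membrane, bind a ligand outside the cell and phosphorylate tyrosines inside it, from where signals pass through adaptors to the RAS-ERK and PI3K-AKT cascades. AXL, TYRO3 and MERTK form the TAM family, whose ligand GAS6 is a vitamin K-dependent protein that bridges the receptor and phosphatidylserine. AXL is well known in mesenchymal-like cancer cells and in resistance to inhibitors of other receptors, and it has been described as a target of YAP and TEAD. EGFR, ERBB2, ERBB3 and MET are receptors with an established place in gastric cancer.

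Expression was given as FPKM, fragments scaled to the length of the transcript and to the mapped fragments of the library, which allows levels of different genes to be set side by side within a library. The read depth behind a value is unknown, since the table holds no counts. The FPKM of all genes summed to between 909735 and 965147 in a library, and between 20061 and 21498 genes were above 0. Library Con 2 stood apart: its correlation with the other libraries over the tested genes averaged 0.898, against 0.954 to 0.964 for the other 5. Changes are differences of the group means of log2(FPKM + 1), GLUP minus Con, and were tested with limma in the 7406 genes that averaged 1 FPKM or more. The added 1 makes changes of genes with low FPKM look smaller than they are. Of the tested genes, 65.5% were lower in GLUP and the median change was -0.23.

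The start of AXL is shown first, because the peptide is aimed at a factor that binds DNA. The gene lies on the forward strand of chromosome 19 at chr19:41725128-41767671 in GRCh37, the build of the gene coordinates given here. RefSeq lists 2 starts for it in GRCh38.p14, 7532 bases apart, and the 250 bases before each are printed 5' to 3' on the forward strand. Capitals mark a match to GGAATG, or to CATTCC on the other strand, the core of the element that TEAD proteins bind. The windows cover chr19:41218973-41219222 and chr19:41226505-41226754 in that build.
AXL upstream start: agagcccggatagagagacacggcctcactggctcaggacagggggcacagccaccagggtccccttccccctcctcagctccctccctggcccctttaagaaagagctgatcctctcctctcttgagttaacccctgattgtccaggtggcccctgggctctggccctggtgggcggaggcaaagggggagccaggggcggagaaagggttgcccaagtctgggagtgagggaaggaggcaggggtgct
AXL downstream start: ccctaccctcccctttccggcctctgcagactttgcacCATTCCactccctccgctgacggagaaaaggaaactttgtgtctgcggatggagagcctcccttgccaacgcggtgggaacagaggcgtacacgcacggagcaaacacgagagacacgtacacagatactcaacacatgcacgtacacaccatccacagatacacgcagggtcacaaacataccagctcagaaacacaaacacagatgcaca
The window of the upstream start had a GC content of 64.4% and held no match, and that of the downstream start had 54.4% and held 1 match, 212 bases before the start. Of all 35116 windows of this length in the RefSeq table, 11.9% held a match, so that 1 of 2 windows is a description of these letters only. Among the 8 members with an entry in the table, AXL and EGFR had a window with a match, beside 14.3% of all 27305 genes there. A loose pattern of the AP-1 element, TGANTCA on either strand with any base in the middle, was found in windows of TYRO3, EGFR and ERBB2. It was found in 6.57% of all windows, in a window of 8.06% of all genes there, and in neither window of AXL. The matches were TGAGTCA and TGACTCA in EGFR, TGAATCA in TYRO3 and TGATTCA in ERBB2.

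AXL was lower in GLUP. Its level was 19.3, 21.9 and 8.80 FPKM in Con 1, 2 and 3, and 6.35, 5.74 and 3.29 FPKM in GLUP 1, 2 and 3. All 3 GLUP libraries were below all 3 Con libraries, and Con 3 was the control nearest to GLUP. The mean was 16.7 ± 6.93 FPKM in Con and 5.13 ± 1.62 FPKM in GLUP (SD, n = 3 each). The log2 change was -1.47 (SE 0.386, 95% interval -2.33 to -0.61), with an unadjusted limma p of 0.00347 and a Benjamini-Hochberg adjusted p of 0.194. An exact permutation test of the means gave p = 0.1, the smallest value that 3 against 3 libraries allow. Total RNA of a culture cannot separate fewer AXL-expressing cells from less AXL RNA per cell.

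The adjusted threshold was passed by 0 of the 7406 tested genes (0%) with limma, AXL included, while 1606 had an unadjusted p under 0.05. AXL was the only member to pass the minimum of 1 FPKM. It was 1 of 1276 tested genes that were lower with an unadjusted p under 0.05 (17.2%), and 1 of 1682 genes whose GLUP libraries all lay below the Con libraries (22.7%). Its change was larger than that of most genes in this direction: 75 of the tested genes (1.01%) had a lower value, and AXL stood at rank 116 by p. Among the tested genes of each library, AXL lay at percentiles 77.1, 79.7 and 69.7 in Con, and at 64.6, 62.6 and 49.8 in GLUP.

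The size of the change varied with single libraries of either group. Without Con 2 the log2 change was -1.24 with an adjusted limma p of 0.147, and without Con 3 it was -1.85 with an adjusted limma p of 0.0285. Leaving out Con 3 also brought 1367 genes past the threshold, so that the call for AXL came with many others. Without GLUP 3, the lowest library for AXL, the change was -1.23.

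The other receptors of the TAM family and the ligand were far lower than AXL, and their Con and GLUP values overlapped. TYRO3, on chr15:41849873-41875787, measured 0.331, 0.520 and 1.60 FPKM in Con and 1.35, 1.32 and 0.485 FPKM in GLUP. Its Con 3 was the highest of all its libraries, and the groups overlapped. The log2 change was 0.21 (SE 0.317, adjusted limma p 0.738), and it was 0.014 without Con 1 and 0.50 without Con 3. TYRO3 has a pseudogene copy, and how reads were shared between the copies is not given in the sources used here.

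MERTK, the receptor best known from clearance of dead cells by phagocytes, lies at chr2:112656184-112787138. It measured 0.0769, 0.181 and 0.0776 FPKM in Con and 0.146, 0.206 and 0.193 FPKM in GLUP, with overlap through Con 2 (log2 change 0.089, adjusted limma p 0.622). GAS6, at chr13:114523522-114567049, measured 0.0886, 0.105 and 0.328 FPKM in Con and 0.363, 0.341 and 0.193 FPKM in GLUP. Its groups overlapped because Con 3 was high and GLUP 3 was low, and the log2 change was 0.15 (adjusted limma p 0.622). The ligand was thus near the bottom of the scale in cells that had AXL at several FPKM.

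**Figure D1:**
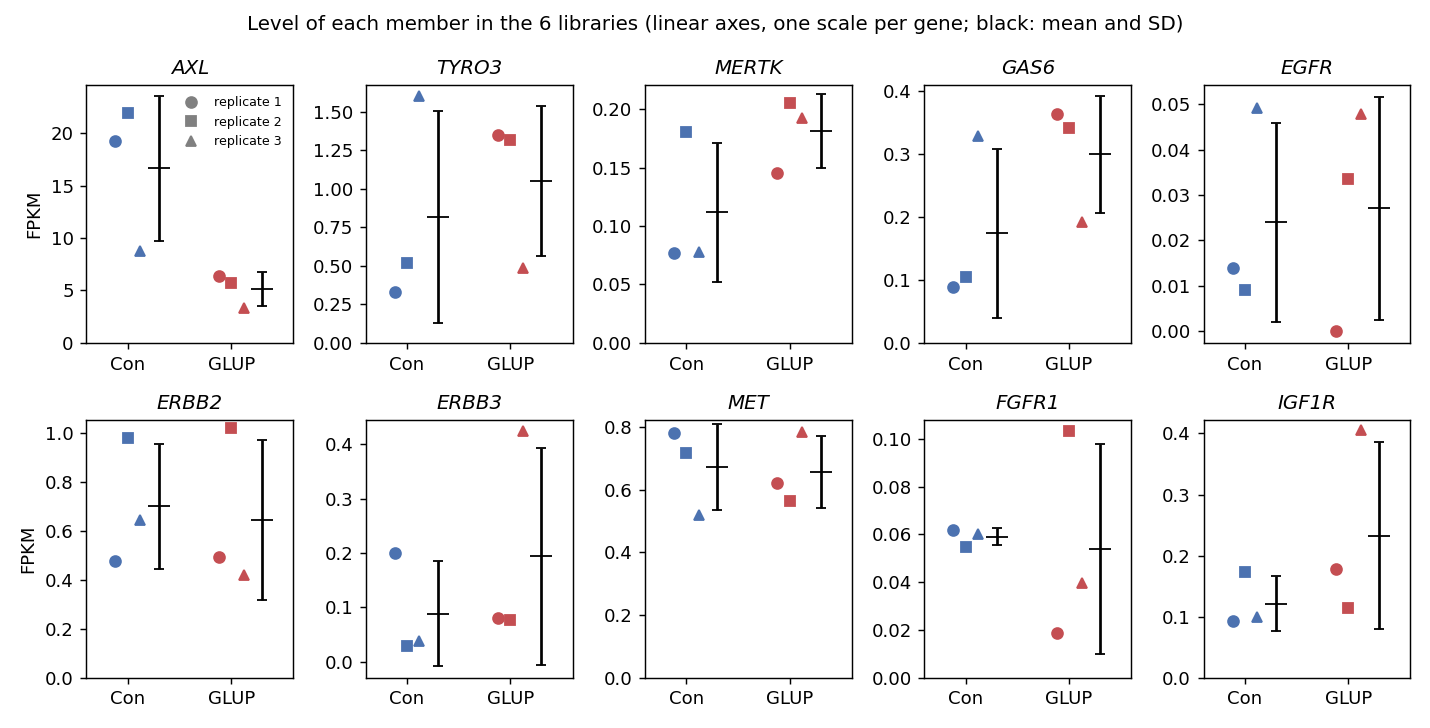
Level of each of the 10 genes in FPKM on the vertical axis, for Con and GLUP, with a separate linear scale per gene; symbols are the libraries and black marks the mean and SD of 3 libraries. The AXL groups are apart (8.80 to 21.9 against 3.29 to 6.35 FPKM), and the groups of the other 9 genes overlap.

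The ERBB family was low in both groups. ERBB2, at chr17:37844167-37886679, is the receptor that has no known ligand of its own and pairs with its relatives. It measured 0.477, 0.981 and 0.646 FPKM in Con and 0.492, 1.02 and 0.421 FPKM in GLUP. Both number 2 libraries were high, the groups overlapped, and the log2 change was -0.056 (adjusted limma p 0.893). ERBB3, at chr12:56470583-56497289, pairs with ERBB2 and has little kinase activity. It measured 0.199, 0.0286 and 0.0375 FPKM in Con and 0.0803, 0.0777 and 0.424 FPKM in GLUP, so that 1 library of each group was above the rest (log2 change 0.12, adjusted limma p 0.646). EGFR, at chr7:55086710-55279321, was nearly undetected, with 0.0139, 0.00901 and 0.0492 FPKM in Con and 0, 0.0335 and 0.0478 FPKM in GLUP. The listed 0 can be a failed estimate, and no fold change is drawn from these levels.

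MET, the receptor of hepatocyte growth factor at chr7:116312250-116438431, had nearly the same mean in both groups. It measured 0.780, 0.718 and 0.519 FPKM in Con and 0.620, 0.563 and 0.783 FPKM in GLUP, and its log2 change was -0.014 (adjusted limma p 0.967). IGF1R, the receptor of insulin-like growth factor 1 at chr15:99191768-99507759, measured 0.0921, 0.173 and 0.0989 FPKM in Con and 0.178, 0.113 and 0.406 FPKM in GLUP. GLUP 3 was its highest library, and the log2 change was 0.13 (adjusted limma p 0.622), and 0.032 without GLUP 3. FGFR1, a receptor of fibroblast growth factors, stayed at or under 0.103 FPKM in every library, with means of 0.0590 and 0.0539 FPKM in Con and GLUP.

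Of the 9 members other than AXL, 6 had a higher and 3 a lower mean in GLUP, with log2(FPKM + 1) changes between -0.056 and 0.21. The groups of all 9 overlapped, while 9.18% of the 24038 genes above 0 and under the minimum had groups that did not overlap in one direction or the other. The smallest unadjusted limma p among the 9 was 0.270, and no single value exceeded 1.60 FPKM.

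At such levels a change as large as that of AXL could be hidden by the added 1, so the interval of each change was also taken on the log2(FPKM + 0.1) scale. There the change of AXL was -1.63 (95% limma interval -2.59 to -0.67). The changes of GAS6, ERBB3, IGF1R, TYRO3 and MERTK were larger on this scale, at 0.62, 0.55, 0.51, 0.47 and 0.44, and the intervals of all 5 spanned 0. The 9 other intervals all lay above the AXL value, on this scale and on the main scale. On the main scale, however, none of the 9 could have fallen as far as AXL. Their highest Con mean of log2(FPKM + 1) was 0.798, in TYRO3, so even a loss to 0 would be a smaller change. The same holds for EGFR, FGFR1, ERBB3, MERTK, IGF1R and GAS6 on the log2(FPKM + 0.1) scale. Only TYRO3, ERBB2 and MET had room for a fall of that size, and only on the log2(FPKM + 0.1) scale. The lowest bounds on the smaller added constant were those of ERBB2, -1.18, and of TYRO3, -1.05. The upper bound of AXL, -0.67, was above the lower bounds of ERBB2, TYRO3, ERBB3, MET and FGFR1, so for these 5 the intervals overlapped with that of AXL. The intervals of ERBB2 and TYRO3 also hold a fall of more than 2-fold, and all 9 hold a higher level in GLUP. Near 0 the added constant shrinks a fold change. The intervals of EGFR, FGFR1, ERBB3, MERTK, IGF1R and GAS6 therefore do not exclude a 2-fold fall of FPKM either. Those of EGFR, FGFR1 and ERBB3 do not exclude a loss to 0.

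**Figure D2:**
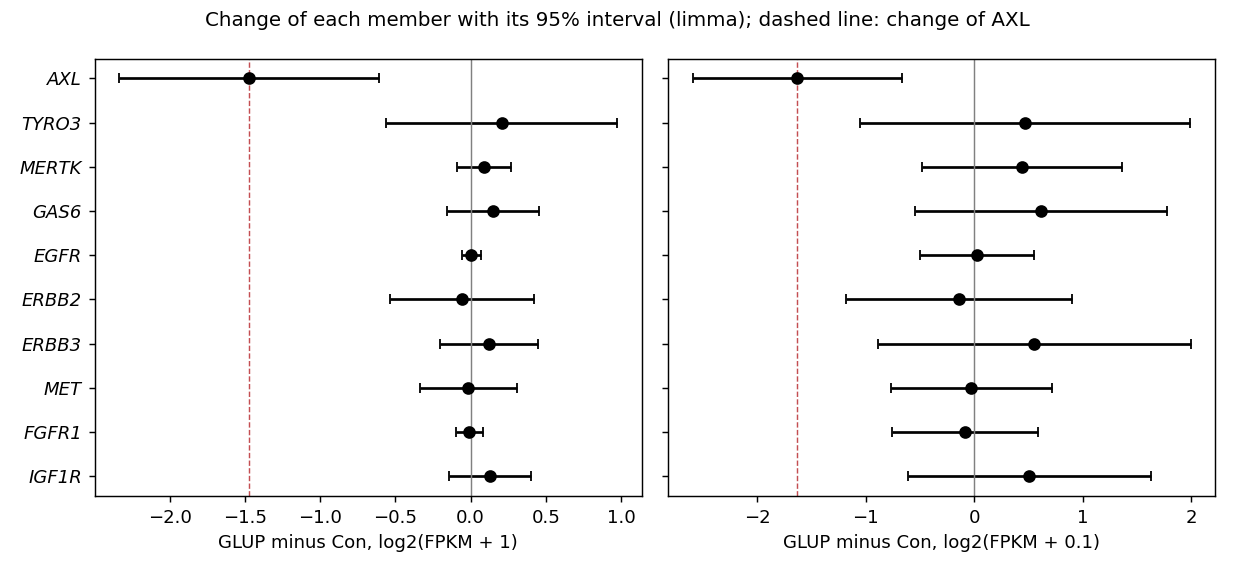
Change of each of the 10 genes, GLUP minus Con, with the 95% limma interval, on the log2(FPKM + 1) scale (left) and the log2(FPKM + 0.1) scale (right); the dashed line is the change of AXL. The interval of AXL lies below 0 on both scales, and those of the other 9 genes span 0.

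The difference between AXL and each other member was taken within libraries, as log2(FPKM + 1) of AXL minus that of the other gene, so that the scaling of a library drops out. AXL relative to TYRO3 was 3.93, 3.91 and 1.91 in Con and 1.65, 1.54 and 1.53 in GLUP, a difference of -1.68. The groups did not overlap, though Con 3 was close to GLUP. For the 9 other members the difference between groups ran from -1.42, against ERBB2, to -1.68. In all 9 the GLUP libraries lay below the Con libraries, and the exact permutation p was 0.1 each time, the smallest possible. These 9 comparisons share the AXL values, and against a gene near 0 they repeat the change of AXL itself. The same was found far beyond the receptors: relative to AXL in the same way, 5599 of 7405 tested genes (75.6%) gave groups that did not overlap with AXL lower in GLUP. The gap between AXL and the other receptors was therefore not particular to receptors.

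Among all receptor tyrosine kinases, AXL was the most abundant transcript. Of 58 genes on the list of the family, 52 were above 0, 24 had a mean from 0.1 to 1 FPKM and 24 a lower one, and 4 reached 1 FPKM: AXL (10.9 FPKM over the 6 libraries), the collagen receptor DDR2 (4.63), the WNT5A receptor ROR2 (1.92) and the insulin receptor INSR (1.41). TYRO3 came next with 0.933 FPKM, followed by ERBB2 with 0.673 and MET with 0.664, neighbours whose values overlapped. AXL ranked first in 5 libraries and was second in GLUP 3, where DDR2 had 3.96 FPKM and AXL 3.29.

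**Figure D3:**
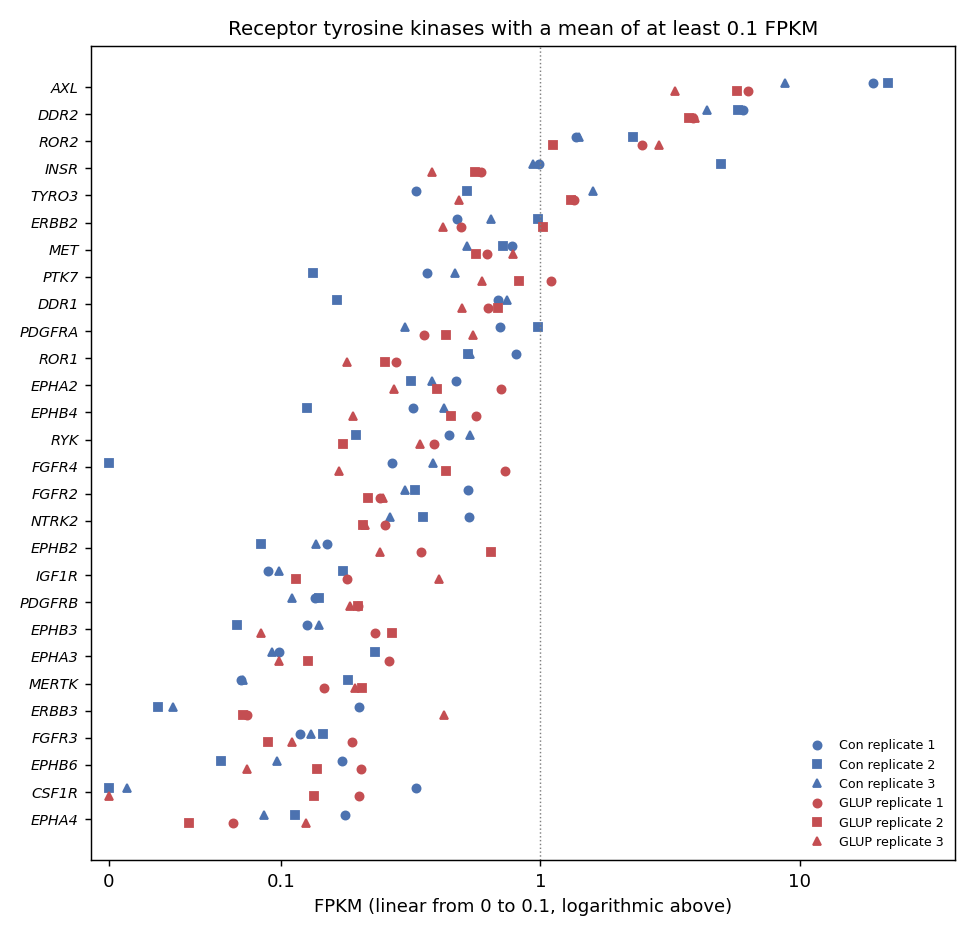
Receptor tyrosine kinases that averaged 0.1 FPKM or more, ordered by mean from the top, with the FPKM of each library on a horizontal axis that is linear up to 0.1 and logarithmic above; the dotted line is the minimum of 1 FPKM. AXL is at the top with 10.9 FPKM on average, and 4 genes have a mean above the line.

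The share of AXL in the summed FPKM of this family was 51.4%, 52.0% and 36.4% in Con and 27.0%, 27.8% and 18.4% in GLUP. It went from 46.6% ± 8.82 in Con to 24.4% ± 5.22 in GLUP (SD, n = 3 each, exact permutation p = 0.1). The sum of the whole family was 34.6 ± 9.33 FPKM in Con and 20.7 ± 2.81 FPKM in GLUP (exact permutation p = 0.1, n = 3 each). Without AXL the sum was 17.9 ± 2.45 FPKM in Con and 15.6 ± 1.40 FPKM in GLUP, with overlapping groups (exact permutation p = 0.2, n = 3 each). The 8 receptors named with AXL summed to 2.59 ± 0.532 FPKM in Con and 3.04 ± 0.345 FPKM in GLUP (exact permutation p = 0.4, n = 3 each). Most of the difference in the family sum was that of AXL.

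**Figure D4:**
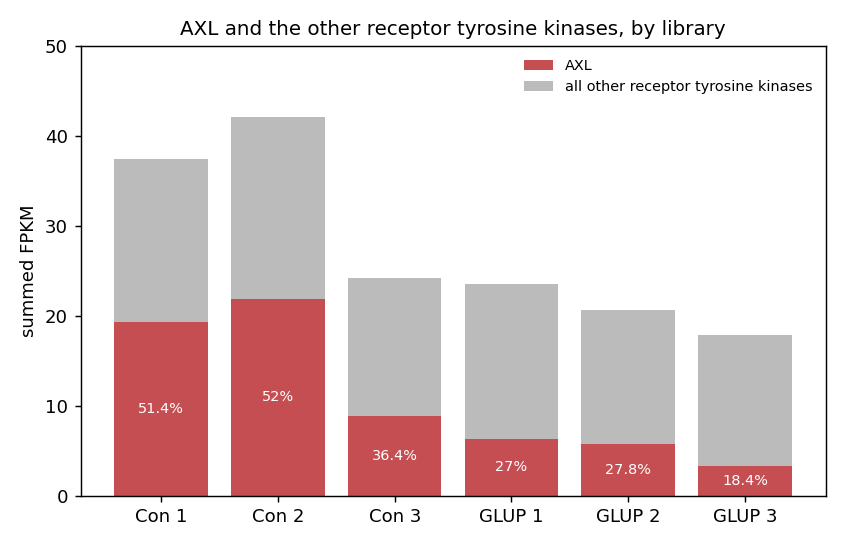
Summed FPKM of the receptor tyrosine kinases in each library (bars from 0), split into AXL (red, with its share of the sum printed) and all other members of the family (grey). The share is between 36.4% and 52.0% in Con and between 18.4% and 27.8% in GLUP.

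The other receptors that could be tested were not all unlike AXL. DDR2 measured 6.05, 5.77 and 4.39 FPKM in Con and 3.86, 3.73 and 3.96 FPKM in GLUP, lower without overlap (log2 change -0.39, SE 0.257, adjusted limma p 0.352). With the trend in GC content and length removed, its value was 0.080, on the other side of 0. INSR measured 0.987, 4.99 and 0.938 FPKM in Con and 0.589, 0.559 and 0.380 FPKM in GLUP, also lower without overlap. Its log2 change was -0.92 (SE 0.395, unadjusted limma p 0.0426, adjusted 0.218) and went to -0.38 without Con 2, the library that held its highest value. ROR2 measured 1.37, 2.27 and 1.41 FPKM in Con and 2.46, 1.11 and 2.87 FPKM in GLUP, with overlap (log2 change 0.20, adjusted limma p 0.668).

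In 3 of the 4 tested receptors, then, the groups did not overlap with GLUP lower, beside 22.7% of all tested genes. The median change of the 4 was -0.65, beside -0.23 over all tested genes. Taken within libraries, the difference of AXL relative to DDR2 was -1.08 and relative to ROR2 -1.67, without overlap (exact permutation p = 0.1 for each). Relative to INSR it was -0.55, with overlapping groups (exact permutation p = 0.4), and on the log2(FPKM + 0.01) scale that value turned to 0.071. Without Con 2, where INSR was highest, the difference was -0.86 and the groups did not overlap, and without Con 1 it was -0.15. Whether AXL differed from INSR thus depended on single controls and on the added constant.

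Of the 48 receptors above 0 and under the minimum, 6 had groups that did not overlap (12.5%, beside 9.18% for all such genes). These 6 were picked out after their values were seen. PTK7, EPHB2 and PDGFRB were higher in GLUP, and ROR1, FGFR2 and NTRK2 were lower. PTK7, a pseudokinase of WNT signalling, had 0.366, 0.132 and 0.467 FPKM in Con and 1.10, 0.828 and 0.596 FPKM in GLUP. ROR1, the relative of ROR2, had 0.805, 0.524 and 0.536 FPKM in Con and 0.276, 0.250 and 0.178 FPKM in GLUP. The adjusted limma p of both was 0.589.

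Genes downstream of the receptors showed no common direction. Of 13 genes of the RAS-ERK cascade, 6 were tested, 3 lower and 3 higher (median log2 change -0.20). The GTPases HRAS and NRAS had log2 changes of -0.48 and -0.40 (adjusted limma p 0.297 and 0.276), both without overlap, beside 22.7% of all tested genes. With the trend in GC content and length removed, NRAS had a value of 0.17, the opposite sign. MAP2K2, which encodes the ERK kinase MEK2, went the other way, from 3.27, 0.658 and 6.34 FPKM in Con to 14.2, 9.80 and 6.22 FPKM in GLUP. GLUP 3 overlapped with Con 3, and its log2 change was 1.50 (unadjusted limma p 0.0147, adjusted 0.198).

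Of 17 genes of the PI3K-AKT cascade, 4 were tested, 2 in each direction (median log2 change -0.057). RHEB, the GTPase that activates mTORC1, was the most abundant of them, with 184, 103 and 106 FPKM in Con and 82.3, 78.3 and 82.9 FPKM in GLUP. These groups did not overlap (log2 change -0.63, adjusted limma p 0.263), and the size was set in part by Con 1, without which it was -0.36.

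Of 20 adaptors and phosphatases, 6 were tested, 4 lower and 2 higher (median log2 change -0.28). The adaptors CRKL (log2 change -0.35, adjusted limma p 0.338) and NCK1 (-0.22, adjusted limma p 0.543) had groups that did not overlap. This was so, with GLUP lower, in 22.7% of all tested genes, and the change of NCK1 was close to their median of -0.23. NCK1 reversed to 0.0063 when libraries were centred on their median, and to 0.38 with the trend in GC content and length removed.

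Of 26 ligands of these receptors, NRG4, a ligand of ERBB4, was the only one to reach the minimum. It measured 5.89, 3.14 and 1.36 FPKM in Con and 0.657, 0.629 and 2.07 FPKM in GLUP, with overlap through GLUP 3 (log2 change -1.01, unadjusted limma p 0.0324, adjusted 0.204). Of 8 genes of receptor shedding, by which ADAM proteases release the outer part of AXL and other receptors, 4 were tested, 3 lower and 1 higher (median log2 change -0.41). TIMP3, an inhibitor of these proteases, had a log2 change of -0.44 without overlap (adjusted limma p 0.284). The protease ADAM17 varied too widely among Con libraries to compare, at 9.67, 34.6 and 0.0799 FPKM, against 2.20, 2.50 and 1.61 FPKM in GLUP.

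Transcripts often used as readouts of ERK activity were mostly too low to test. Of 10 such genes only CCND1 (cyclin D1, log2 change 0.13, adjusted limma p 0.766) and ETV5 (-0.39, adjusted limma p 0.432) reached the minimum, and of 14 feedback inhibitors only SPRY1 did (0.37, adjusted limma p 0.523). The groups of all 3 overlapped. In none of these lists did a gene pass the adjusted threshold.

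The genes whose pattern over the 6 libraries was most like that of AXL were RNF13 (Pearson's r 0.999 on log2(FPKM + 1)), PPP2CA (0.997), NAMPT (0.995), CALU (0.994) and UBE3B (0.994). CALU, a calcium-binding protein of the secretory pathway, measured 67.8, 64.7 and 33.4 FPKM in Con and 25.6, 22.8 and 17.0 FPKM in GLUP. As with AXL, Con 3 was the lowest control and GLUP 3 the lowest treated library. Such likeness was common: 946 of 6224 protein-coding genes tested (15.2%) had an r above 0.9 with AXL. All these values come from the same 6 libraries and share their scaling, and they are given as a description.

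Base composition moved with the change over all genes. The median log2 change went from -0.62 in the lowest of 10 equal bins of tested genes by GC content of the canonical transcript to 0.30 in the highest. AXL has a GC content of 53.85% and belongs to bin 8, where the median change was 0.12 and 40.8% of genes were lower. In that bin, 6 of 728 genes (0.824%) had a lower change than AXL. With the trend in GC content and length removed from each library, the change of AXL was -1.44 (adjusted limma p 0.183). DDR2 belongs to bin 3, where the median change was -0.46 and 86.7% of genes were lower. No such correction was made for the members under the minimum, where the part of base composition was not tested.

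**Figure D5:**
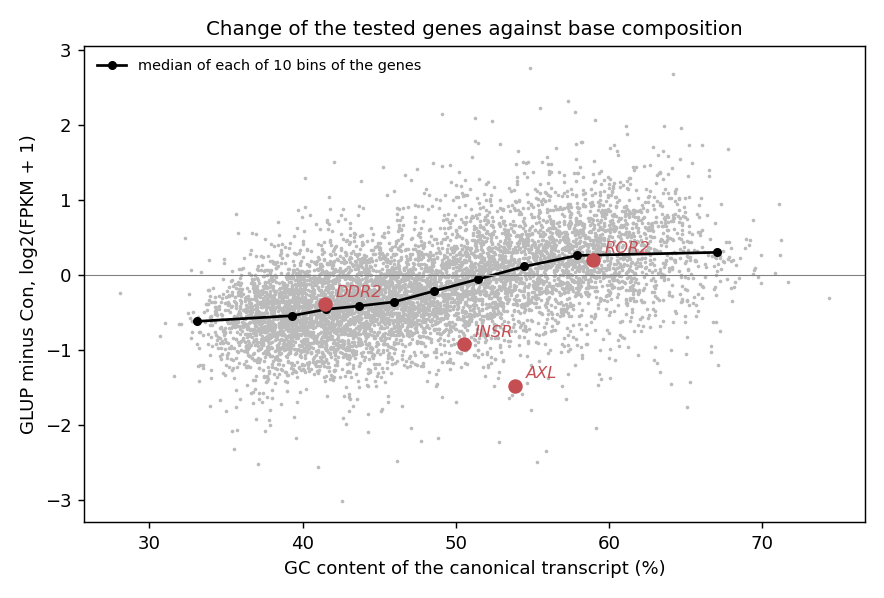
Change of each tested gene, GLUP minus Con in log2(FPKM + 1), against the GC content of its canonical transcript in percent (grey points), with the median of each of 10 equal bins by GC content (black) and the 4 tested receptors (red). AXL, at -1.47, lies far below the median of 0.12 of its bin, and DDR2 lies close to the median of its own.

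Markers of the labelled cell type were mixed. Among epithelial markers, EPCAM, CDH1, CLDN4 and ESRP1 stayed at or below 0.164 FPKM in every library, and CDH1 was listed at 0 in all 3 GLUP libraries. The keratins KRT8, KRT18 and KRT19 carried the epithelial sum, which was 3.19 to 3.89 FPKM in Con and 5.29 to 6.21 FPKM in GLUP. All 3 keratins were higher in GLUP without overlap, beside 7.55% of all tested genes, with log2 changes of 0.41, 0.67 and 0.31 (adjusted limma p 0.300, 0.194 and 0.346). Their GC contents put them in bins 9 and 10 by base composition, where 29.5% and 28.0% of genes were lower and the median changes were 0.26 and 0.30. With the trend in GC content and length removed, KRT8 was at 0.046, KRT18 at 0.31 and KRT19 at -0.10. KRT8 and KRT18 have many pseudogene copies, so their values are uncertain.

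Mesenchymal markers summed to 353 to 415 FPKM in Con and 241 to 347 FPKM in GLUP, nearly all of it VIM, the intermediate filament vimentin. FN1, which encodes fibronectin, had a log2 change of -0.67 without overlap (unadjusted limma p 0.0471, adjusted 0.226), and of -0.32 without Con 2, its highest library. It was the only one of 4 tested mesenchymal markers without overlap, beside the 22.7% of all tested genes. Of these 4, 3 were lower and 1 was higher in GLUP (median log2 change -0.53). ZEB1 measured 7.05, 19.2 and 3.51 FPKM in Con and 2.88, 2.92 and 5.88 FPKM in GLUP, with overlap (log2 change -0.94, adjusted limma p 0.279). VIM had a log2 change of -0.39 (adjusted limma p 0.390, overlap). SPARC had a higher mean in GLUP (log2 change 0.33, overlap), while CDH2 was at or under 0.0508 FPKM. Fibroblast markers summed to 87.8 to 125 FPKM in Con and 92.4 to 123 FPKM in GLUP, with overlap. Most of this sum was LUM, DCN and COL3A1, with means of 64.8, 24.6 and 17.2 FPKM over the 6 libraries. COL1A1 averaged 4.11 FPKM, and COL1A2 and PDGFRB were low, at 0.341 and 0.161 FPKM. The cells thus had the levels of AXL described here next to abundant transcripts of some matrix genes, but not of every fibroblast marker. Leukocyte markers summed to at most 0.228 FPKM and endothelial markers to at most 0.0597 FPKM. The part of these markers in the values of AXL was not tested.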

How the data were processed

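Illumina libraries were made from total RNA of 6 HGC-27 samples, which the titles put into groups. The authors deposited 1 table of FPKM values, and the submitters' processing notes name HISAT2, Cufflinks, RSEM and GRCh38.p10 without roles or versions. Row identifiers carry the suffix of an annotation lifted to GRCh37, so coordinates, length and GC content were taken from GENCODE release 44 in that build. How reads were assigned by strand is not given in the sources used here. Of the 62492 rows, 49 were pseudoautosomal copies and were merged with their counterparts. No read counts could be recovered: 3.87% to 5.85% of the low values of single-transcript genes lay within a narrow window around a common step, and the step put relative depths between 0.832 and 1.

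Genes that averaged 1 FPKM or more (7406 of 31444 above 0) were tested with limma 3.58.1 (R 4.3.3; lmFit, eBayes with trend, two-sided) on log2(FPKM + 1), with Benjamini-Hochberg adjustment over all of them at 0.05. For members and list genes below that level, an unfiltered fit of the 31444 genes was read. The script was tested on simulated data. A planned limma fit of the differences between AXL and other genes was not used, because values that share AXL left its spread estimate without bound; overlap and two-sided exact permutation tests replaced it. The members and 14 gene lists (187 of 188 symbols matched) were chosen with earlier results of these data known. Named were all members, the 5 protein-coding genes most correlated with AXL and, per list, up to 4 tested genes in each direction with the largest change and no overlap, and any past the adjusted threshold; 1 gene named by this rule is not reported here. MAP2K2, NRG4, ADAM17, ROR2, CCND1, ETV5, SPRY1, VIM, ZEB1 and the receptors under the minimum were named after their values were seen.

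Promoter windows came from RefSeq (GRCh38.p14), where ERBB3 and FGFR1 had no entry used here. Samples were not paired by replicate number in the main fit. The correlations of same-numbered deviations from the group means were 0.13, -0.010 and -0.17. With 3 libraries in each group these cannot decide whether the samples were paired. Other settings covered the added constant, the filter, 6 scalings, eBayes options, the replicate number as a block, trends in GC content and length (loess, span 0.5), and each library left out.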

Additional observations from a re-analysis of the deposited data

How the results depend on the processing

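AXL was lower in GLUP under every other setting. In the 16 that kept all libraries it lay between -1.18 (libraries centred on their median) and -1.65 (added constant of 0.01), with an adjusted limma p of 0.172 to 0.589. The scalings moved the median change of all tested genes from -0.23 to between -0.27 and 0.015, and relative to that median AXL was at -1.24 as deposited and at -1.16 to -1.25 under the scalings. With a library left out AXL ran from -1.85 to -1.23, and passed the adjusted threshold in 1 case, without Con 3. The count of genes past the adjusted threshold, 0 as reported, was 1 when genes under 5 FPKM were left out, when eBayes had no trend, with the replicate block, and with the trend in GC content and length removed, with or without the block, and that gene was past 2-fold each time. With a library left out that count ran from 0 to 1367, and with the 2-fold rule from 0 to 1041. The cause was not tested.

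Among members close to no difference the sign turned. EGFR was at -0.031 with an added constant of 0.01 and at -0.0013 when quantile normalized. In the upper quartile, trimmed mean, median and quantile scalings, ERBB2 was at 0.055, 0.060, 0.070 and 0.028, and MET at 0.11, 0.11, 0.12 and 0.095. FGFR1 was at 0.0074, 0.0082 and 0.0099 in the first 3 of these. With a library left out TYRO3 ran from 0.014 to 0.50, GAS6 from 0.098 to 0.24 and IGF1R from 0.032 to 0.20 without a change of sign, and the ranges were -0.010 to 0.023 for EGFR, -0.21 to 0.059 for ERBB2, -0.0090 to 0.20 for ERBB3, -0.081 to 0.033 for MET and -0.041 to 0.016 for FGFR1. With the trend in GC content and length removed, also with the replicate block, DDR2 was at 0.080, NRAS at 0.17, NCK1 at 0.38 and KRT19 at -0.10, and NCK1 was at 0.0063 when libraries were centred. AXL relative to INSR was at 0.071 with an added constant of 0.01. The block changed no call of a member (AXL adjusted limma p 0.172). No correction for GC content was run for members under the minimum. The read depth behind the members under the minimum is unknown, and the intervals given above bound their differences only on scales with an added constant.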
